A study of Mus musculus with 3 samples.

Results

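Genes that act in G2 and mitosis were followed across the cells of 3 mouse neuroblastomas. The genes are a named list of 55 of the 31053 genes in the deposited tables. The tumors were taken whole from TH-MYCN mice, 1 tumor per mouse, when the mice were 62 days (tumor 1), 79 days (tumor 2) and 63 days old (tumor 3). All 3 mice were heterozygous for a transgene in which the tyrosine hydroxylase promoter drives MYCN in cells of the neural crest lineage, and they form a single group here, so comparisons are between cell classes of the same tumors. The tumors were dissociated with Liberase and DNase and profiled with droplet-based 3′ single-cell RNA-seq, in which each captured RNA molecule is counted once as a unique molecular identifier (UMI). Levels are given as CPM, the UMIs of a gene per 1000000 UMIs of the cells summed, a scale that counts molecules and needs no correction for gene length. The tumor is the replicate (n = 3), and the tumor and the age of its mouse cannot be told apart.

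A cell that has copied its DNA turns on a common set of genes before it divides. Cdk1 with cyclins A and B starts mitosis, Aurora and Polo kinases build the spindle, the kinetochore and passenger proteins attach and check the chromosomes, and the anaphase-promoting complex then destroys the cyclins with the help of Ube2c and Cdc20. Neuroblastoma cells with MYCN amplification divide rapidly, whereas mature neutrophils have left the cell cycle and serve here as the class that should lack these genes.

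Genes of this set are known to share 2 short promoter motifs, the CHR bound by the DREAM and MuvB complexes and the CCAAT box bound by NF-Y. In the 300 bases around the start site (RefSeq annotation of GRCm38.p6, 47 of the 55 genes matched, 52 promoters), the CHR letters TTTGAA or TTCGAA were found on either strand in 76.9% of the promoters, against 19.2% of all 32851 promoters of the same length. CCAAT was found on either strand in 78.8%, against 37.4% of all. Both motifs stood in 65.4% of the members' promoters and in 7.52% of all, and at least 2 CCAAT matches in 55.8% and 11.7%. The 250 bases before the start are shown for 6 members on which the results below turn, 5′ to 3′ on the strand of the gene, with matches to either motif in capitals (each motif also as its reverse complement). They are Ube2c (chr2:164769679-164769928, plus strand), Cdk1 (chr10:69352913-69353162, minus strand), Top2a (chr11:99024190-99024439, minus strand), Mki67 (chr7:135716380-135716629, minus strand), Lbr (chr1:181842402-181842651, minus strand) and Birc5 (chr11:117848987-117849236, plus strand).
Ube2c: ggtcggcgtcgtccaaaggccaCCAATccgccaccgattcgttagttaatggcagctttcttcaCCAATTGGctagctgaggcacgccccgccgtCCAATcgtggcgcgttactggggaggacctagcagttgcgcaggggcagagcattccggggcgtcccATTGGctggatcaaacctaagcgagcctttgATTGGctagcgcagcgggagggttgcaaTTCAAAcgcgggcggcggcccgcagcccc
Cdk1: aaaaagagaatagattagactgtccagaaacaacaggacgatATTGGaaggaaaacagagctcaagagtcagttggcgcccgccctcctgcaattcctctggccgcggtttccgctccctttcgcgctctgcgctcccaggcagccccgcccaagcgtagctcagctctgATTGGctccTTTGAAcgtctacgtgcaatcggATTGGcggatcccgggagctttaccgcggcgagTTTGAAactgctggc
Top2a: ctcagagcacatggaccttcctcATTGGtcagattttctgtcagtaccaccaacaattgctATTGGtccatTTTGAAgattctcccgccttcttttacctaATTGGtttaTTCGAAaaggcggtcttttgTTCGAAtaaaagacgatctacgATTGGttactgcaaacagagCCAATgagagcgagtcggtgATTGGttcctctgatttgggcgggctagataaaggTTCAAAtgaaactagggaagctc
Mki67: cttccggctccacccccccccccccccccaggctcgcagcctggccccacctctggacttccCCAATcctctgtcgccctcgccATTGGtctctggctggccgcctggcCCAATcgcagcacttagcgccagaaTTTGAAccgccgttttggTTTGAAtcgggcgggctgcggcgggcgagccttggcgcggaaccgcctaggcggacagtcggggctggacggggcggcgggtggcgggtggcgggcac
Lbr: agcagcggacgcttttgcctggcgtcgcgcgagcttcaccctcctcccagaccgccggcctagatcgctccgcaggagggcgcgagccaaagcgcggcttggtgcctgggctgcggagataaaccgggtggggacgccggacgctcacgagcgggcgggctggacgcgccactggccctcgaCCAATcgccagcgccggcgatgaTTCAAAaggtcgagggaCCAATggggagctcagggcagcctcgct
Birc5: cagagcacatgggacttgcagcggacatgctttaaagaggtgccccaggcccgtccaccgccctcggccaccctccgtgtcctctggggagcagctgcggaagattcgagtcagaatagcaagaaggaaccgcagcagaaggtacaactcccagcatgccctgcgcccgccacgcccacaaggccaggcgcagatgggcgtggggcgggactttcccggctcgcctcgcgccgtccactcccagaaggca
Top2a and Ube2c each held 6 CCAAT matches in this window, and Lbr, which behaved unlike the other members in the results below, held both motifs as well. Birc5 held neither set of letters. A match is a description of the sequence and not a bound site.

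The cells used are the barcodes that the authors kept in their normalized tables, 1914 of 3257, 1221 of 4327 and 2515 of 6038 in tumors 1, 2 and 3. Their median depth was 4282.5, 1594 and 1816 UMIs. Tumor pairs shared 3, 0 and 1 barcodes. Cells were clustered without the 55 genes and named from markers. The tumor-like class was named from 10 neuroblast markers, among them Th and Stmn2, and held 355, 937 and 2093 cells with a median of 2, 3 and 3 of these markers per cell. Macrophage-like (605, 99 and 185), neutrophil-like (236, 55 and 22), T cell-like (144, 47 and 67) and endothelial-like cells (44, 21 and 33) were the other classes with cells in every tumor that are described most below.

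Tumor 1 stood apart from tumors 2 and 3 in how cleanly these classes separated. The summed tumor markers reached 2739, 2965 and 3140 CPM in tumor-like cells. In neutrophil-like cells they were 55.2 CPM in tumor 1, with Dbh, Th and Chga at 0, but 996 in tumor 2, where all 10 were detected, and 1322 in tumor 3, where 9 were. In macrophage-like cells the values were 28.4, 690 and 1080 CPM, with Dbh and Chga at 0 in tumor 1 and no marker at 0 in tumors 2 and 3. T cell-like cells held a median of 5 of their 6 own markers in tumor 1 but 1 and 0 in tumors 2 and 3, and B cell-like cells held 5, 2 and 1 of 6, so in tumors 2 and 3 these names rest on few UMIs. Neutrophil-like cells held 6, 6 and 4 of their 7 markers. Each result outside tumor-like cells is therefore given tumor by tumor. The part that RNA from other cells took in these values was not tested.

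In tumor-like cells all 55 members were detected in all 3 tumors. Hmgb2, a chromatin protein that also acts outside mitosis, was the highest, at 2028, 1878 and 2392 CPM (mean 2099 ± 264, SD, n = 3). Ube2c, the ubiquitin-conjugating enzyme of the anaphase-promoting complex, came next at 562, 581 and 677 (607 ± 61.7). Top2a, which untangles sister DNA, came after Ube2c at 488, 382 and 344 (405 ± 74.5). The ranges of Hmgb2 and Ube2c, and of Ube2c and Top2a, did not overlap. Below them the order was less firm, since 50 of the 54 neighbours in rank had overlapping ranges. The lowest were Cdc25c, the phosphatase that activates Cdk1, at a mean of 25.7 CPM, and Gtse1 at 18.1.

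Cdk1 and its partners summed to 1234, 1298 and 1439 CPM in tumor-like cells. Cks2 and Cks1b, small subunits of the Cdk1 complex, held 331, 354 and 413 and 192, 285 and 257 CPM. Cdk1 itself held 220, 258 and 290. Among the kinases Plk1, the Polo kinase, held 124, 81.9 and 86.7, and Bub1b, a spindle checkpoint kinase, 88.8, 72.5 and 74.6. Aurka was the steadiest member of the list, at 67.8, 63.5 and 68.3 CPM, a coefficient of variation of 3.91% over the 3 tumors.

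The genes of the centromere and passenger complex, the spindle and the chromosomes gave most of the remaining UMIs. Birc5, the passenger subunit survivin, held 265, 371 and 409 CPM in tumor-like cells, Cenpf held 279, 311 and 267, and the centromeric histone Cenpa 181, 237 and 261. Tubb4b, a tubulin, held 286, 314 and 400 CPM, the spindle assembly factor Tpx2 157, 134 and 97.3, and the microtubule polymerase Ckap5 147, 145 and 94.8. The 11 spindle genes together gave 1096, 1109 and 1108 CPM, the closest sums of any of the 9 roles. Mki67, the proliferation marker that coats mitotic chromosomes, held 350, 286 and 256, and the condensin subunit Smc4 404, 346 and 336.

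The cytokinesis genes Anln and Prc1 varied most between tumors, with coefficients of variation of 50.2% and 48.7%. Anln, which binds the contractile ring, was highest in tumor 1 (84.0, 54.1 and 28.3 CPM), and Prc1, which bundles the central spindle, was lowest there (80.7, 242 and 179). Racgap1, which acts at the cleavage site, held 100.1, 87.5 and 81.4. The motors Kif11, Kif20b and Kif2c held 128, 108 and 81.9, then 88.8, 66.3 and 68.0, then 85.6, 66.3 and 64.0 CPM. Of the other ubiquitin genes Cdc20, the activator of the anaphase-promoting complex, held 168, 221 and 270.5, and Cdca3 87.2, 132 and 131. With 1 tumor per age these differences between tumors have no test.

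**Figure D1:**
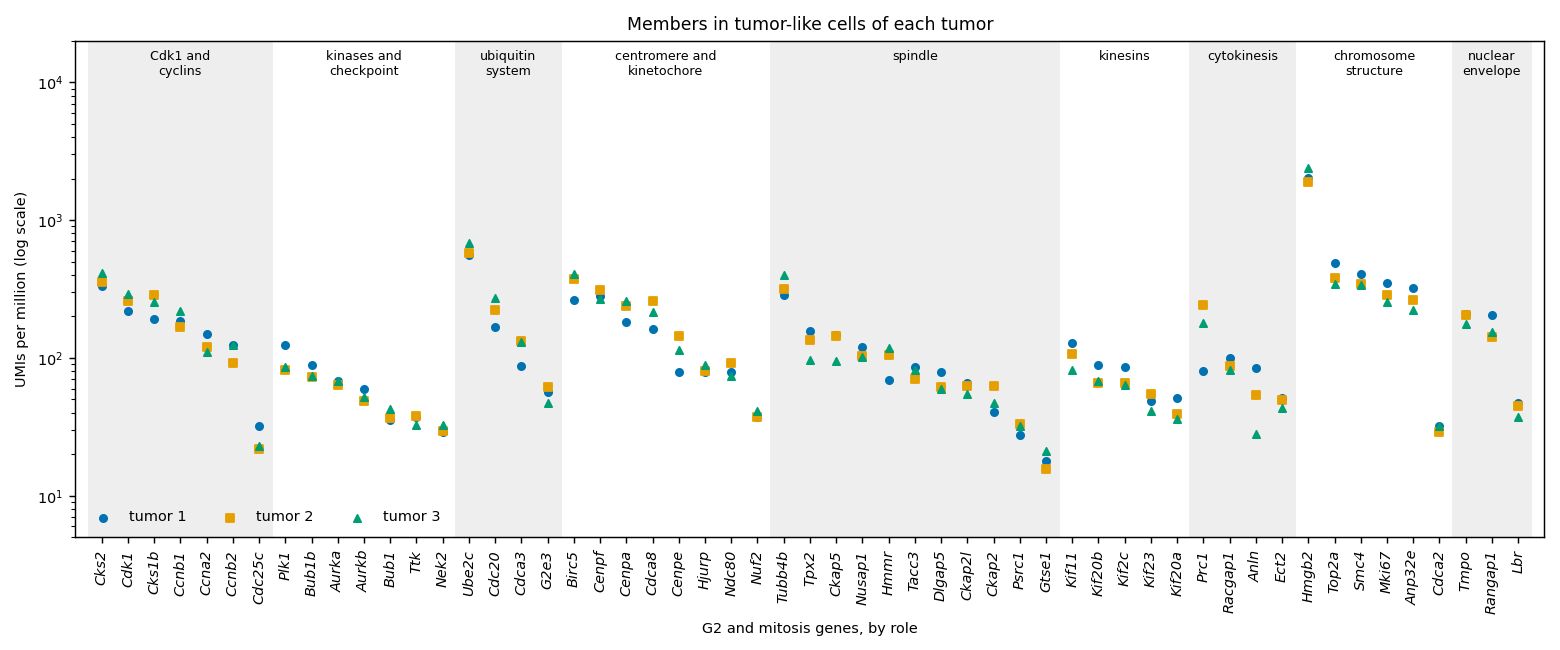
Level of each of the 55 members in tumor-like cells, in CPM on a log scale, grouped by role, with 1 point per tumor. The points of a gene lie close together for most members, with Hmgb2 at the top (mean 2099) and Gtse1 at the bottom (mean 18.1), and spread widest for Anln and Prc1.

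Outside tumor-like cells the members' levels depended on the tumor. In macrophage-like cells the median member reached 3.65%, 43.9% and 43.4% of its tumor-like level in tumors 1, 2 and 3, and in neutrophil-like cells 4.38%, 47.2% and 51.5%. In tumor 1, 44 of the 55 members were under 10% of the tumor-like level in macrophage-like cells, 44 in neutrophil-like and 41 in B cell-like cells. T cell-like cells kept more in their summed UMIs, with a median of 38.7%, 72.5% and 74.1%. In tumor 1 that level was not even over the T cell-like cells. With each cell thinned to 1000 UMIs, 83 of 123 held none of 43 members, those other than Ube2c and 11 broadly used genes. Endothelial-like cells held a median of 28.7%, 26.4% and 45.9%, above macrophage-like and neutrophil-like cells in tumor 1 but not above both in tumors 2 and 3.

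Named members showed the same picture. Cdk1 held 4.34, 98.5 and 141 CPM in macrophage-like cells and 4.24, 149 and 224 in neutrophil-like cells. Top2a held 11.5, 144 and 136 in macrophage-like cells, 29.7, 223 and 269 in neutrophil-like cells and 209, 292 and 204 in T cell-like cells. Mki67 held 20.4, 210 and 162, then 7.07, 119 and 89.6, then 149, 234 and 132 in the same 3 classes. In tumors 2 and 3 these 3 genes thus stood at 89.6 CPM or more in neutrophil-like cells, which held 29.7 CPM or less in tumor 1. The neutrophil-like sum of tumor 3 held only 44646 UMIs from 22 cells, so its values rest on few UMIs of each gene. Tmpo, a nuclear lamina protein, held 126, 111 and 120 CPM in macrophage-like cells against 210, 205 and 175 in tumor-like cells, and Rangap1, of nuclear transport, held 32.4, 93.5 and 66.7 against 207, 142 and 155.

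The levels outside tumor-like cells were set beside those of the tumor markers. The 43 narrow members, which are the list without Ube2c and 11 genes used in many resting cells, summed in macrophage-like cells to 4.70%, 43.2% and 45.0% of their tumor-like level, and the tumor markers to 1.04%, 23.3% and 34.4%. In neutrophil-like cells the narrow members stood at 10.1%, 53.5% and 55.6%, and the tumor markers at 2.01%, 33.6% and 42.1%. In T cell-like cells of tumor 1 the narrow members reached 40.5% while the tumor markers reached 4.57%. Such a sum gives deep cells more weight, and here it was 2078 CPM against 5127 in tumor-like cells. With each cell of tumor 1 thinned to 1000 UMIs the values were 756 CPM in 123 T cell-like and 6106 in 160 tumor-like cells. T cell-like cells of tumors 2 and 3 held 69.9% and 72.1% of the narrow members and 47.3% and 79.5% of the tumor markers. Endothelial-like cells held 32.1%, 25.7% and 45.4% of the narrow members and 7.56%, 20.9% and 33.4% of the tumor markers, so from tumor 1 to tumor 2 the first was lower and the second higher. In tumors 1 and 2 the 4 classes thus held a larger share of the narrow members than of the tumor markers. In tumor 3 this was so for all but T cell-like cells. In the sums of tumor 1 T cell-like and endothelial-like cells held the largest shares of the narrow members among the 4 classes. Thinned to 1000 UMIs per cell, endothelial-like cells of tumor 1 held 1056 CPM of the narrow members and T cell-like cells 756. Neutrophil-like and macrophage-like cells of tumor 1 then held 541 and 262.

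**Figure D2:**
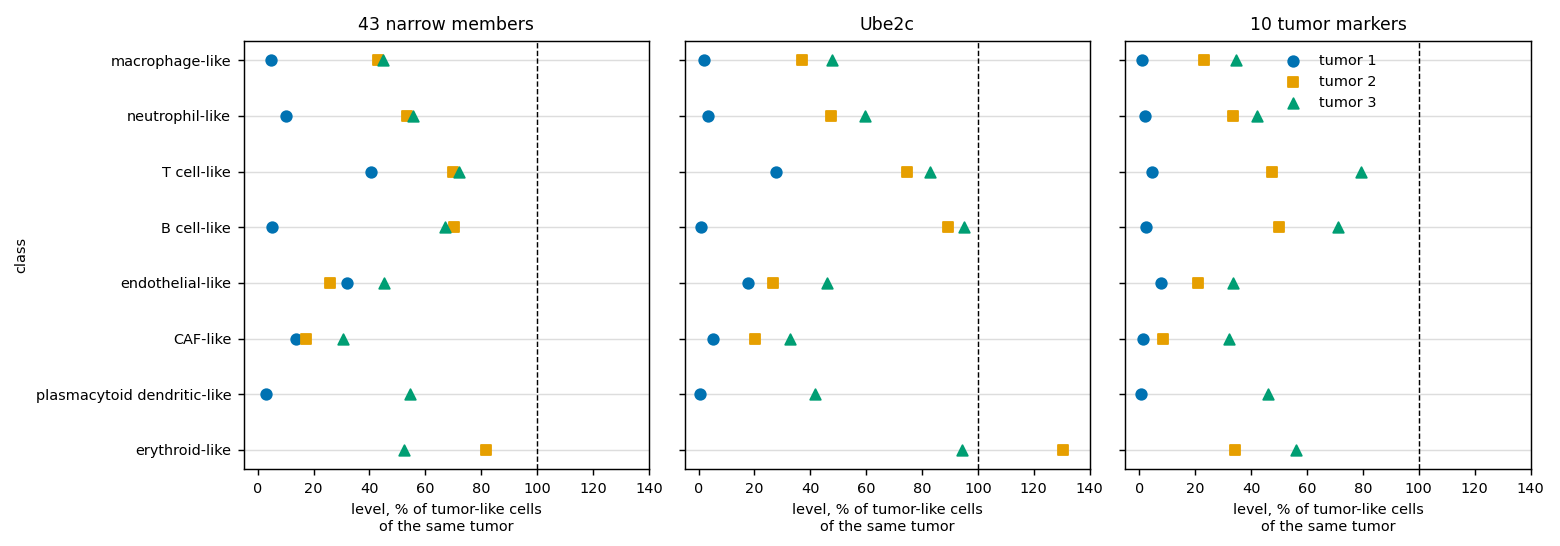
Summed narrow members, Ube2c and tumor markers in each class as a percentage of the level in tumor-like cells of the same tumor (dashed line at 100%), with 1 point per tumor. In tumor 1 most immune classes lie near 0 for all 3 quantities and T cell-like and endothelial-like cells lie apart for the narrow members, whereas in tumors 2 and 3 each class plotted holds both members and tumor markers.

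Tested over tumors, tumor-like cells held more of most members than the other classes, but how many were called depended on the scaling. Of 54 members tested, 49 were called higher in tumor-like cells than in the unweighted mean of 8 other classes (edgeR, Benjamini-Hochberg adjusted p, threshold 0.05), and 0 lower, where 25.5% of all 9034 genes were called higher and 1.57% lower. The members' median log2 fold change was 2.04, and that of all genes 0.55. With RLE factors in place of TMM 0 members were called (25 at an unadjusted p under the same threshold), and with DESeq2 1 was called (9 unadjusted). Of all genes 0.0553% were called higher with RLE factors and 0.41% with DESeq2. The whole scale shifts between these settings, with a median of all genes of 0.55, −0.24 and −0.53. Relative to that median the members stood 1.49, 1.46 and 1.55 higher on the log2 scale, and 53 of 54 members stood above it in each.

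Every role contributed. All 6 tested genes of Cdk1 and its cyclins were called, all 7 kinases and checkpoint genes, all 6 chromosome genes and all 4 cytokinesis genes, with 10 of 11 spindle genes, 7 of 8 centromere genes, 4 of 5 kinesins, 3 of 4 ubiquitin genes and 2 of 3 envelope genes. Among the larger log2 fold changes was that of Bub1b, at 3.36 (SE 0.671, adjusted p = 0.00378), with Kif2c at 3.34 (SE 0.714, adjusted p = 0.00438) and Kif11 at 2.83 (SE 0.511, adjusted p = 0.00316). Top2a stood at 1.67 (SE 0.544, adjusted p = 0.0261), Mki67 at 1.86 (SE 0.579, adjusted p = 0.0214) and Cdk1 at 1.80 (SE 0.654, adjusted p = 0.0431). Smc4 and Tmpo had the smaller changes among the members called, 0.97 and 0.98. The 5 members not called, named here after their values were seen, were Ube2c (1.70, SE 0.697, adjusted p = 0.0719), Birc5 (1.65, SE 0.768, adjusted p = 0.117), Gtse1 (2.02, adjusted p = 0.0806), Kif23 (1.11, adjusted p = 0.0658) and Lbr (−0.50, adjusted p = 0.655). With the tumor as a block, 53 were called, where 32% of all genes were, including Ube2c (2.39, adjusted p = 5.95e-05) and Birc5 (2.16, adjusted p = 0.000638).

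Against single classes fewer members passed. Against macrophage-like cells 13 were called higher, where 8.98% of all genes were: Tpx2, Ckap5, Ckap2 and Ckap2l of the spindle, Kif11, Kif20b and Kif2c, Racgap1 and Ect2, Smc4, Hmgb2 and Anp32e, and G2e3. Kif11 had a log2 fold change of 2.61 (SE 0.759, adjusted p = 0.0144) and Tpx2 one of 2.20 (SE 0.701, adjusted p = 0.0245). Against neutrophil-like cells 10 were called higher, where 11.4% of all genes were, among them Racgap1 (3.24, SE 0.815, adjusted p = 0.0048), Ckap5 (2.17, SE 0.589, adjusted p = 0.00854) and Aurka (3.14, SE 1.06, adjusted p = 0.0304). With the tumor as a block the counts were 48, where 24.4% of all genes were called higher, and 32, where 23.8% were. Without tumor 2 no member was called against macrophage-like cells, where 0.857% of all genes were called higher. Without tumor 1 none was called higher against neutrophil-like cells, where 1.85% of all genes were, and 1 was called lower. Against T cell-like cells 0 members were called in either direction by edgeR or DESeq2, and 0 had an unadjusted p under the threshold, where 0.531% of all genes were called higher and 6.19% lower. In simulated counts this comparison recovered 1.12% of log2 changes of 1 and 1.09% of log2 changes of 2, so the count of 0 decides little. The simulated recovery was 0% and 7.61% against macrophage-like cells, and 0% and 2.17% against neutrophil-like cells. The simulation changed few of its 6502 genes and gave 8, 2 and 2 calls against macrophage-like, neutrophil-like and T cell-like cells. In the data 811 genes were called higher and 1505 lower against macrophage-like cells. The adjusted threshold was thus harder to pass in the simulation, and its recovery does not give the power of the real comparisons. The members' median log2 difference to T cell-like cells was 0.90, and that of all genes 0.33.

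Within each tumor the direction was more uniform. In CPM, 53 of 54 members were higher in tumor-like than in macrophage-like cells in all 3 tumors, where 44.7% of all genes were, and the 3 tumor-like values lay above all 3 macrophage-like values for 52, where 35.2% of all genes did so. For neutrophil-like cells the counts were 46 (43.5% of all genes) and 43 (31.7%). For T cell-like cells they were 37 (29.5%) and 27 (17.2%), for B cell-like cells 32 (29.4%) and 19 (18.7%), for endothelial-like cells 50 (33.5%) and 48 (24.5%), and for CAF-like cells, the fibroblasts, 53 (37.9%) and 53 (28.5%).

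Lbr was the exception in the list. It codes for the lamin B receptor of the inner nuclear membrane, which is known to shape the lobed nucleus of neutrophils. It held 241, 253 and 157 CPM in neutrophil-like cells (217 ± 52.2, n = 3) against 46.8, 44.6 and 37.2 in tumor-like cells (42.9 ± 5.06), so the groups did not overlap. It was the only member called lower in tumor-like cells in any of the 4 comparisons, with a log2 fold change against neutrophil-like cells of −2.72 (SE 0.730, adjusted p = 0.00799), where 16.6% of all genes were called lower. It was also the 1 member called between macrophage-like and neutrophil-like cells, lower in macrophage-like cells by a log2 fold change of −2.92 (adjusted p = 0.0166), where 3.92% of all genes were called lower and 2.98% higher. That call was lost without tumor 2 and without tumor 3, where 0 members were called. With the tumor as a block Cks2, Kif23 and Hmgb2 were called lower there too, where 7.49% of all genes were. With RLE factors 2 members in place of 1 were called lower in tumor-like than in neutrophil-like cells, where 25.8% of all genes were. T cell-like cells also held more Lbr than tumor-like cells in tumors 1 and 3, at 131 and 81.5 CPM, but not in tumor 2, at 35.1. Few Lbr UMIs stand behind the smaller sums. These held 44646 UMIs in neutrophil-like cells of tumor 3, and 85536 and 98204 in T cell-like cells of tumors 2 and 3.

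Genes next to the members in the cell cycle showed a like pattern against the mean of the other classes. Of 47 other regulators of G2 and mitosis 37 were tested and 32 called higher, among them the kinesin Kif14 (log2 fold change 3.66) and the condensin subunit Ncapd2 (3.15), with a median of 1.98. Of 45 genes of S phase 41 were tested and 40 called higher, among them Uhrf1, which copies DNA methylation to the new strand (3.49), and Exo1, a DNA repair nuclease (3.30), with a median of 1.80. Of 15 genes of cell cycle exit 11 were tested, of which the inhibitor Cdkn1c was called higher (2.33, adjusted p = 0.0429) and the antiproliferative gene Btg2 lower (−2.32, adjusted p = 0.0207), beside the 25.5% and 1.57% of all genes given above. Against neutrophil-like cells 5 of the 11 genes of exit were called lower in tumor-like cells, where 16.6% of all genes were. They were Cdkn1a, the inhibitor p21 (−5.38), Btg2 (−5.02), Btg1 (−4.36), Ccng2 (−2.81) and Cdkn2d (−1.87). Btg2 and Cdkn1a were also called lower against macrophage-like cells, at −2.58 and −2.94, where 16.7% of all genes were called lower. The other genes named in this paragraph were singled out after their values were seen.

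Ube2c, the second highest member, was followed separately as planned, but RNA outside tumor-like cells was not particular to it. In neutrophil-like cells Ube2c stood at 3.27%, 47.3% and 59.6% of its tumor-like level, and the narrow members at 10.1%, 53.5% and 55.6%. Outside tumor-like cells Ube2c summed to 25.9, 243 and 343 CPM over all other named classes in tumors 1, 2 and 3, against 562, 581 and 677 in tumor-like cells. In neutrophil-like cells it held 18.4, 275 and 403 CPM, in macrophage-like cells 11.0, 215 and 323, in T cell-like cells 155, 433 and 560, and in B cell-like cells 5.16, 519 and 643. After thinning each cell to 1000 UMIs, a Ube2c UMI was found in 31.3%, 42.4% and 47.2% of tumor-like cells. In neutrophil-like cells the share was 2.25% (5 of 222 cells, exact 95% binomial interval 0.735 to 5.18), 27.3% (15 of 55, 16.1 to 41.0) and 36.4% (8 of 22, 17.2 to 59.3). In macrophage-like cells it was 1.22%, 26.3% and 24.9%, at or below the neutrophil-like share in each tumor. The neutrophil-like share serves as the background for comparison, and the part that RNA from other cells took in it was not tested. Without thinning the shares were 37.7%, 60.7% and 67.8% in tumor-like and 5.08%, 50.9% and 59.1% in neutrophil-like cells. Intervals here cover counting error only.

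For each 100 narrow UMIs there were 11.0, 10.9 and 12.8 Ube2c UMIs in tumor-like cells, and 5.20, 10.6 and 13.7 in all other named classes. Neutrophil-like cells held 3.56, 9.61 and 13.7, and macrophage-like cells 4.58, 9.30 and 13.6. In tumors 2 and 3 the ratio in these classes was thus close to that of the tumor-like cells, and in tumor 1 it was lower. The highest ratios stood in small sums, 17.3 and 23.2 in erythroid-like cells of tumors 2 and 3 (18 and 16 Ube2c UMIs) and 18.2 in B cell-like cells of tumor 3 (26 UMIs). In the authors' corrected values Ube2c stood at 25.9, 367 and 412 CPM outside tumor-like cells and at 510, 750 and 915 in tumor-like cells. These values were made after ambient RNA was removed but in part exceed the raw counts, so the difference from the raw levels is not that removal alone.

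Cells with a Ube2c UMI were also read for the other members. In tumor 1, 84.0% of the 50 thinned tumor-like cells with a Ube2c UMI held 3 or more narrow members, against 68.1% of all. Of 7 macrophage-like cells with a Ube2c UMI, 4 held no other narrow member, as did 5 of 7 with a Top2a UMI and 3 of 5 with a Birc5 UMI. Another 2 of the 7 with Ube2c held 3 or more narrow members, against 0.521% of all macrophage-like cells. So did 4 of 6 T cell-like cells with Ube2c, against 4.07% of all, and 0 of 5 neutrophil-like ones. In tumors 2 and 3 the shares with 3 or more were 85.1% of 397 and 85.9% of 988 tumor-like cells, against 84.6% and 84.9% of all. Tumor-like cells with and without Ube2c were thus close there.

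Cells were next counted as holding several members at once. At 1000 UMIs per cell, 3 or more different narrow members were found in 109 of 160 (68.1%, exact 95% interval 60.3 to 75.3), 793 of 937 (84.6%, 82.2 to 86.9) and 1778 of 2093 (84.9%, 83.3 to 86.5) tumor-like cells, a mean of 79.2% ± 9.62 (SD, n = 3). In tumor 1, 195 of 355 tumor-like cells had under 1000 UMIs and were left out. Neutrophil-like cells, the background class, gave 0 of 222 in tumor 1, which allows a share of up to 1.35%, but 29 of 55 (52.7%, 38.8 to 66.3) and 10 of 22 (45.5%, 24.4 to 67.8) in tumors 2 and 3. Median depths before thinning in neutrophil-like cells were 2672.5, 2229 and 2072 UMIs, against 1739, 1547 and 1813 in tumor-like cells. Without thinning the shares were 54.6%, 97.5% and 97.5% in tumor-like and 6.78%, 96.4% and 90.9% in neutrophil-like cells.

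In tumor 1, with that background near 0, a few immune and stromal cells held 3 or more narrow members. There were 16 of 1368 such cells in all (1.17%, exact 95% interval 0.670 to 1.89), of which 5 of 123 were T cell-like (4.07%, 1.33 to 9.23), 4 of 36 endothelial-like (11.1%, 3.11 to 26.1) and 3 of 576 macrophage-like (0.521%, 0.108 to 1.51). B cell-like cells gave 0 of 200, which allows up to 1.5%. Of the 5 T cell-like cells, 2 held 10 or more members, and 1 CAF-like cell held 20. The T cell-like and endothelial-like ones were deep, with a median of 26150 UMIs over the 5 and 22039 over the 4 cells. The others of their class had medians of 5428.5 and 9125. The 3 macrophage-like cells and the CAF-like cell were not deeper than the others of their class, at 3853 against 9470 and 13442 against 16183 UMIs. None of the 3 macrophage-like, 5 T cell-like and 4 endothelial-like cells held 2 or more tumor markers at 1000 UMIs. Over all their UMIs 0, 1 and 0 of them did, and the T cell-like ones held a median of all 6 T cell markers. Whether they were pairs of cells in 1 droplet was not tested beyond the doublets that the authors removed.

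In tumors 2 and 3 the immune and stromal shares were 51.3% (140 of 273) and 52.9% (219 of 414). Macrophage-like cells gave 42.4% and 45.9%, and endothelial-like cells 47.6% and 39.4%, within the intervals of the neutrophil-like background. T cell-like cells gave 68.1% (52.9 to 80.9) and 79.1% (67.4 to 88.1), above the neutrophil-like values with overlapping intervals. Many of these cells also carried tumor markers, but so did many cells with fewer members. Of the macrophage-like cells with 3 or more narrow members, 42.9% and 58.8% held 2 or more tumor markers, against 24.6% and 32.0% of the others, and the median depth was 1642 and 1506 UMIs against 3872 and 4541.5.

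**Figure D3:**
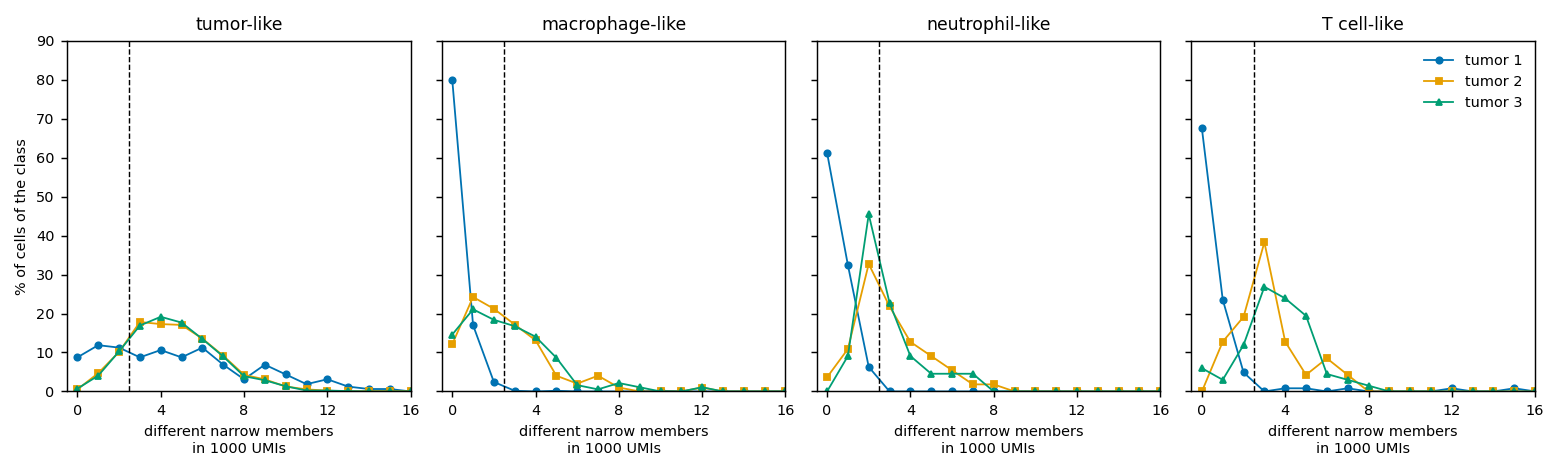
Share of cells by how many different narrow members they held in 1000 UMIs, for 4 classes, with 1 line per tumor and a dashed line below 3 members. In tumor 1 the tumor-like line is broad and reaches 15 members while neutrophil-like cells end at 2, whereas in tumors 2 and 3 the 4 classes lie around medians of 2 to 4 members.

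Tumor-like cells of tumor 1 differed from those of tumors 2 and 3 in how the members were shared out between cells. At 1000 UMIs the mean sum of narrow members was almost the same, 6.11, 5.30 and 5.22 UMIs per cell, but its variance was 4.06, 1.47 and 1.28 times its mean, where an equal level in all cells would give 1. In tumor 1, 8.75% of tumor-like cells held no narrow member and 19 of 160 held 10 or more. In tumors 2 and 3, 0.534% and 0.717% held none, and 22 of 937 and 41 of 2093 held 10 or more. The S phase genes showed the same order at 2.49, 1.24 and 1.14. Barcodes that the authors did not keep but that held 2 or more tumor markers gave 2.65 (17 barcodes), 2.88 (2350) and 2.11 (2253), so in tumors 2 and 3 the members varied more between cells among those than among the kept cells with 2 or more tumor markers, which gave 1.44 and 1.34.

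**Figure D4:**
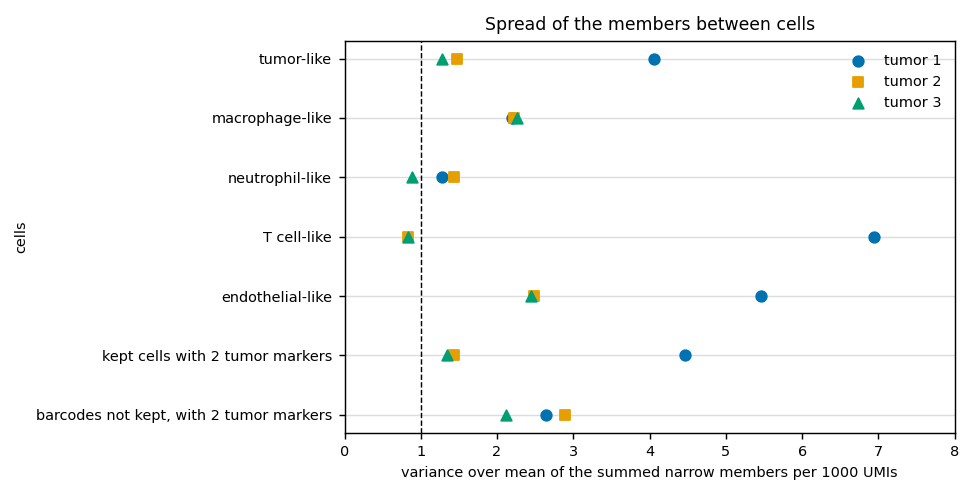
Variance over mean of the summed narrow members per 1000 UMIs, by class and for barcodes kept or not kept with 2 or more tumor markers, with 1 point per tumor and a dashed line at 1. Tumor-like cells stand at 4.06 in tumor 1 and at 1.47 and 1.28 in tumors 2 and 3, and T cell-like cells at 6.95 in tumor 1 and below 1 in the others.

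Member by member the same split was seen. Tumor-like cells were divided by whether they held 3 or more other narrow members, and the level of each member was compared between these 2 sets. In tumor 1 the 36 narrow members with a UMI in both sets had a median ratio of 5.62 (1.27 to 41.5), 34 of them above 2, and 7 had no UMI in the cells with fewer. In tumors 2 and 3 the median ratios were 1.28 (0.792 to 3.01) and 1.13 (0.874 to 3.93), with 1 of 43 above 2 in each. Plk1 gave 13.5, 1.25 and 1.14 in tumors 1, 2 and 3, Cks2 10.4, 1.34 and 1.15, Mki67 6.75, 1.26 and 1.26, and Top2a 6.51, 1.28 and 1.20. The ratio of Ube2c was lower in tumor 1 than these, at 3.38, 1.19 and 1.06, and Birc5 gave 2.55, 1.01 and 0.98. In tumor 1 the cells with fewer held only 2 UMIs of Plk1, 7 of Cks2, 13 of Mki67 and 17 of Top2a. They held 34 of Ube2c and 23 of Birc5. The highest ratio, 41.5, was that of Ccnb1 with 1 UMI there, so the sizes of the tumor 1 ratios are imprecise. The 11 broadly used members had medians of 2.72, 1.38 and 1.14. In tumor 1 the members were thus high in the same cells, and in tumors 2 and 3 they were nearly even across tumor-like cells. The cause of this difference between tumors was not tested.

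**Figure D5:**
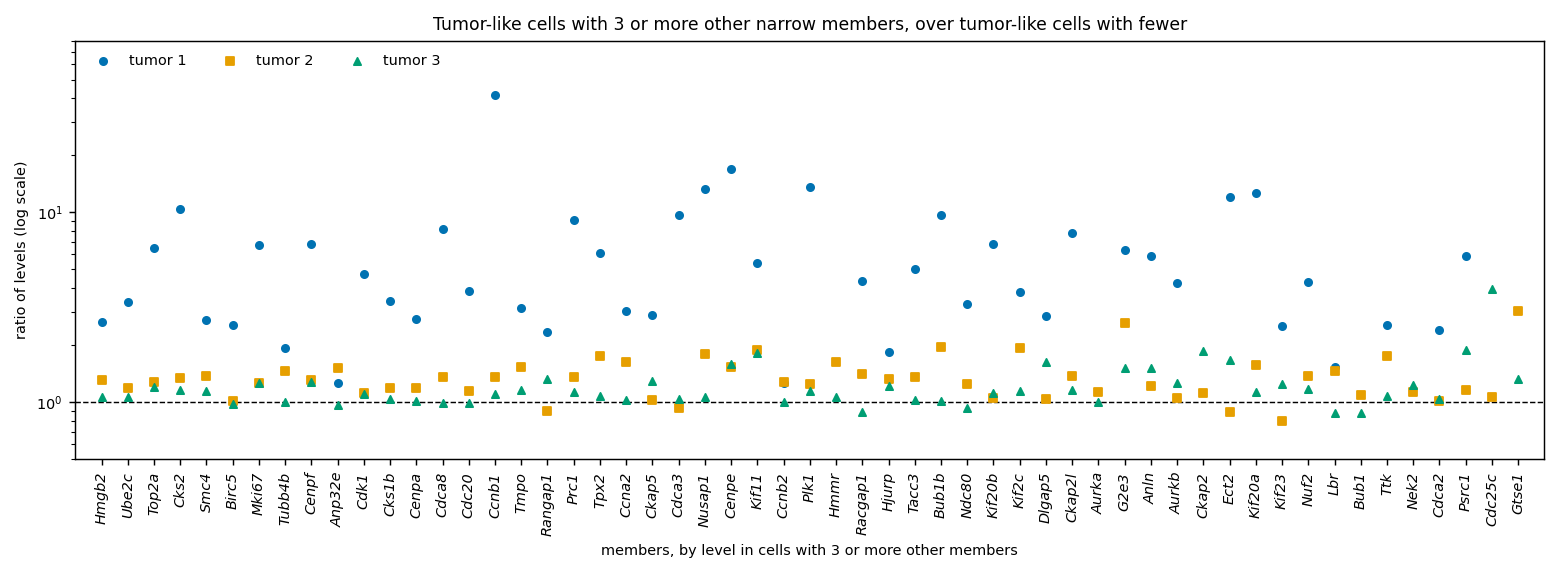
Ratio of each member's level in tumor-like cells with 3 or more other narrow members to its level in tumor-like cells with fewer, on a log scale with a dashed line at 1 and 1 point per tumor (7 members have no tumor 1 point, as they had no UMI in its cells with fewer). Tumor 1 lies above the other tumors for most members (median 5.62 for narrow members), and tumors 2 and 3 lie near 1 (1.28 and 1.13).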

How the data were processed

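Per the labels, 3 whole tumors were profiled with the 10x Genomics 3′ kit and processed with Cell Ranger 3.1.0, Seurat and the build mm10. The authors deposited raw UMI counts, and normalized values for the cells left after they removed ambient RNA and doublets. These deposited values are on a natural log scale and became whole corrected counts when reversed, of which 17.9%, 0.738% and 0.404% in tumors 1, 2 and 3 exceeded the raw count. Raw counts of the kept cells were used here.

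Clustering used Seurat 5.3.0 under R 4.3.3 (canonical correlation, 2000 variable genes, 30 dimensions, 20 neighbors, resolution 1), with the members and the cell cycle lists held out. Naming a cluster took 3 markers with a fold of at least 2 over the median cluster in 10% or more of the cells. This score, and the division of 1 cluster into tumor-like and plasma cell-like cells, were set after the data were seen. Sums per tumor and class (28, each of at least 10 cells) entered a single edgeR 4.0.16 fit (filterByExpr, TMM, quasi-likelihood tests, Benjamini-Hochberg over 9034 genes, threshold 0.05). Alternatives were DESeq2 1.42.0, RLE factors, no filter, a block, each tumor left out, the corrected counts, a resolution of 0.5, no genes held out, other member minimums and other thinning depths. Steps were tested on simulated data.

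The classes of a tumor share 1 mouse, which pairs them. Over 9034 genes, their deviations from class means correlated at 0.0117 to 0.629 (median 0.262) in 63 pairs of the same tumor and at −0.488 to 0.248 (median −0.189) in 126 other pairs. Genes are named by a rule: the 3 highest members of each role in tumor-like cells, Ube2c, Mki67 and any member called higher in another class, with others where a count of 5 or fewer falls on them. The members and lists were chosen with earlier results of these data known.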

Additional observations from a re-analysis of the deposited data

Results flagged for a closer look

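Members were also found in barcodes that the comparisons do not use. The 55 members summed to 13447, 135831 and 103736 UMIs in barcodes the authors did not keep in tumors 1, 2 and 3, against 22999, 21641 and 46202 in kept cells. The narrow members stood at 1622, 4737 and 4365 CPM in barcodes not kept and at 735, 4310 and 4608 in kept cells. With mitochondrial genes left out of the total the values were 1844, 7215 and 6757 CPM in barcodes not kept and 768, 4562 and 4823 in kept cells, so the direction turned in tumor 3. Barcodes not kept had medians of 925, 5351.5 and 3703 UMIs against 4282.5, 1594 and 1816 in kept cells, and mitochondrial genes took 12.0%, 34.3% and 35.4% of their UMIs against 4.28%, 5.52% and 4.46%. Ube2c stood at 156, 247 and 320 CPM in barcodes not kept and at 52.7, 465 and 597 in kept cells. Among barcodes with 2 or more tumor markers, there were 1.85, 5.56 and 8.05 Ube2c UMIs for each 100 narrow UMIs in those not kept, against 8.33, 11.3 and 13.0 in those kept, with 17 barcodes behind the first of these values. The cause was not tested.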

How the results depend on the processing

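The counts of members called rest on 3 tumors, on the scaling and on the class definitions. For tumor-like cells against the mean of the other classes 49 members were called higher, against 1 with DESeq2, 0 with RLE factors, 1 with the authors' corrected counts, 5 at a clustering resolution of 0.5, 18 with RLE factors and the tumor as a block (an alternative chosen after seeing the data), and 14 to 27 with a tumor left out (17 without tumor 1, where 37 members were tested, 27 without tumor 2 and 14 without tumor 3). The share of all genes called higher changed too, from 25.5% to 0.41% with DESeq2 and 0.0553% with RLE factors. It was 0.0527% with the corrected counts, 1.18% at a resolution of 0.5 and 4.94% with RLE factors and the block. Without tumors 1, 2 and 3 it was 6.54%, 10.1% and 4.95%. Against macrophage-like cells 13 became 0 with DESeq2, with RLE factors and with the corrected counts, 1 at a resolution of 0.5, 6 with no genes held out, 37 without the filter and 0 to 16 with a tumor left out. The share of all genes went from 8.98% to 0.642%, 0.974%, 0.86%, 2.06%, 5.55% and 11% in these settings in turn. It was 10.8%, 0.857% and 1.67% without tumors 1, 2 and 3. Against neutrophil-like cells 10 became 1 with DESeq2, 0 with RLE factors, 3 with the corrected counts, 3 at a resolution of 0.5, 28 without the filter and 0 to 1 with a tumor left out. The share of all genes went from 11.4% to 0.421%, 0.587%, 3.02%, 2.49% and 6.58% in these settings in turn. It was 1.85%, 2.64% and 0.577% without tumors 1, 2 and 3. The replicate block gave 53 members against the mean, 48 against macrophage-like and 32 against neutrophil-like cells. With RLE factors as well the counts were 18, 23 and 2, where 4.94%, 8.8% and 1.87% of all genes were called higher. The block left 0 members called higher against T cell-like cells and changed no other call there. It raised the members lower in macrophage-like than in neutrophil-like cells from 1 to 4, a count that was 0 without tumor 2 or tumor 3. The count of 0 against T cell-like cells and of 0 higher in macrophage-like than in neutrophil-like cells held in every alternative run. No member named by the rule changed sign, and of their 324 values under alternatives 162 kept their side of the threshold, 156 lost the call and 6 gained it, 3 each for Ube2c and Birc5. The mean share of tumor-like cells holding several members, 79.2%, was 89.8% at 2 members, 49.0% at 5 members, 93.9% at 2000 UMIs and 41.3% at 500 UMIs, as fewer members or more UMIs per cell make the minimum easier to reach. The share of immune and stromal cells, 1.17%, 51.3% and 52.9% in tumors 1, 2 and 3, was 5.19%, 72.5% and 74.4% at 2 members, 0.804%, 16.1% and 15.9% at 5 members, 2.80%, 61.2% and 62.4% at 2000 UMIs and 1.04%, 18.3% and 20.5% at 500 UMIs. The cause of the other changes was not tested.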
